A study of Mus musculus with 12 samples.

Results

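The genes described are 9 that hold the basal keratinocyte to the basement membrane or let it move over wound matrix. They were taken by symbol from a table of 29956 named genes, all 9 were present, and all 9 passed the filter on low counts. They are Lama3 and Lamb3 (laminin-332 chains), Itga6, Itgb4, Col17a1 and Dst (the hemidesmosome), and Itga3, Itga5 and Itgb6 (other keratinocyte integrins). RNA sequencing gave their levels in wounded skin of B6.BKS(D)-Leprdb/db mice, a model of type 2 diabetes with no functional leptin receptor, in which wounds close slowly. All groups shared this genotype and a full-thickness punch wound of the back, and skin was collected on day 3. The vehicle group (4 libraries) had phosphate-buffered saline with glycerol put on the wound. Of the other groups, also of 4 libraries each, one had Alcaligenes faecalis, which is Gram-negative, and one had Staphylococcus aureus, a common Gram-positive pathogen of skin. The bacteria were applied in saline, and glycerol is named for the vehicle only. Age, sex and whether the libraries of a group came from separate mice are not given in the sources used here, so p-values measure the spread between these libraries, which may be in part technical. No group without diabetes or without a wound was analysed here.

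As background, laminin-332 is the main adhesive laminin under the epidermis. At rest, the integrin α6β4 (Itga6 with Itgb4) clasps it in the hemidesmosome, where collagen XVII (Col17a1) and the plakin BP230 (a product of Dst) link the integrin to keratin filaments. When skin is cut, keratinocytes at the edge take hemidesmosomes apart, lay down fresh laminin-332 and crawl, using α3β1 on laminin, α5β1 on fibronectin and αvβ6 on fibronectin and tenascin, the last of which also activates latent TGF-β. Inherited loss of these hemidesmosome or laminin-332 parts gives blistering skin.

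Library totals were 38431730 to 71308925 estimated counts. Levels are CPM (counts-per-million) values, with TMM (trimmed mean of M-values) used to scale library sizes, and a gene was called when its adjusted p from edgeR's quasi-likelihood test, over 18218 genes, was under 0.05. CPM is not divided by transcript length, so levels are compared between libraries and not between genes. Basal keratinocyte markers were present in all 12 libraries, with Krt5 at 151 to 549 CPM and Krt14 at 272 to 1439 CPM. Hair follicle keratins were at low levels, with Krt25 listed at 0 in 9 libraries and Krt71 in 8. One library stood apart: vehicle replicate 3 had a summed adipocyte marker level (5 genes) of 3951 CPM where the other 11 libraries had 365 to 1234 CPM. In whole tissue, fewer cells of a type and less RNA per cell cannot be told apart.

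The integrin subunit Itgb6, the α3 subunit Itga3 and the laminin chain Lama3 were higher in S. aureus wounds than in A. faecalis wounds. EdgeR's adjusted p passed the threshold for 3 of 9 genes there, all higher with S. aureus, where 7.62% of all genes tested were called higher. Limma-voom called Itga3 and Itgb6 of the 9 (7.38% of all genes were called higher), and DESeq2 called these, Lama3 and Dst (19.1% called). Against vehicle, edgeR called 0 of 9 genes with A. faecalis, where it called 0.0110% of all genes, and 0 of 9 with S. aureus, where it called 6.84%. With A. faecalis, 4 of the 9 were lower and 0 higher at an unadjusted p under 0.05 (4.50% and 3.18% of all genes), limma-voom called 0 (0.0110% of all genes), and DESeq2 called Lama3 and Itgb6 as lower (0.439%). With S. aureus, 3 were lower and 2 higher at an unadjusted p under 0.05 (14.8% and 12.3% of all genes), limma-voom called 0 (6.97%), and DESeq2 called Lama3, Col17a1 and Dst as lower and Itga5 as higher (15.8%). The comparisons share libraries, so their values are given side by side and are not independent.

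**Figure D1:**
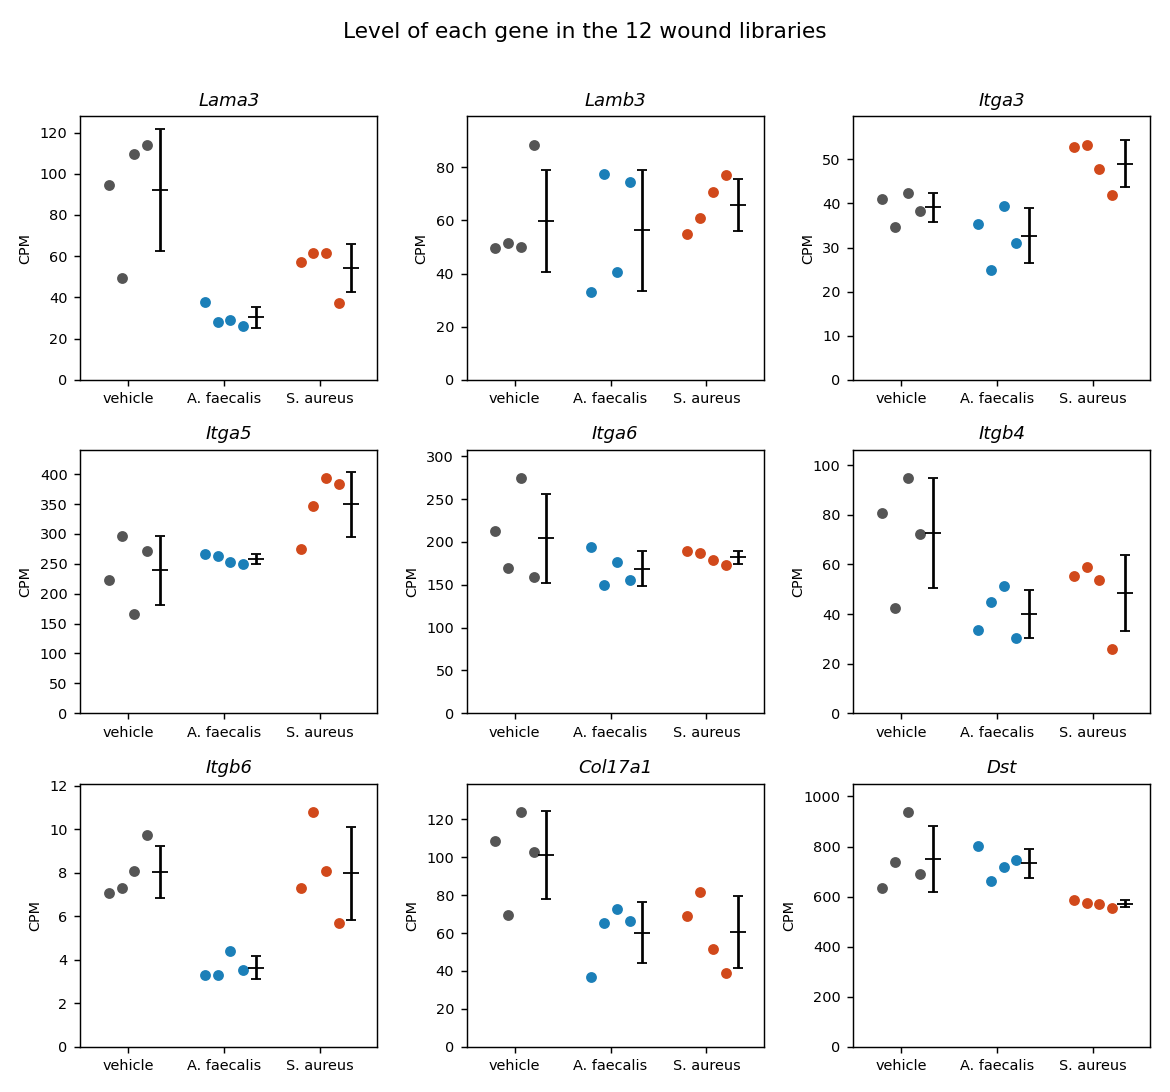
Level of each of the 9 genes in CPM (vertical axis, linear, from 0) in each library (points, replicates 1 to 4 from left to right) of the vehicle, A. faecalis and S. aureus groups, with mean ± SD of 4 libraries in black. The 4 A. faecalis libraries lie below all vehicle libraries for Lama3 and Itgb6, and the 4 S. aureus libraries lie below all others for Dst.

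Lama3 encodes the α3 chain, the part of laminin-332 that integrins bind. Its level was 94.6, 49.4, 109.7 and 114.1 CPM in vehicle replicates 1 to 4. With A. faecalis it was 37.7, 28.1, 28.9 and 26.3 CPM, and with S. aureus 57.1, 61.6, 61.5 and 37.1 CPM. Every A. faecalis library lay below every vehicle library, while S. aureus replicate 4 lay just below A. faecalis replicate 1 and vehicle replicate 2 lay within the S. aureus range. The log2 fold change of A. faecalis against vehicle was -1.60 (SE 0.25, 95% interval -2.15 to -1.06), a level 3.04-fold lower, with an adjusted p of 0.16 by edgeR and 2.49e-06 by DESeq2. This direction held without each library in turn (log2 fold change -1.79 to -1.48). Without vehicle replicate 2, the lowest vehicle library, the edgeR adjusted p was 0.00388, and it was up to 0.577 without another library. S. aureus against vehicle gave -0.76 (SE 0.25, 95% interval -1.29 to -0.22, adjusted p = 0.077 by edgeR; 0.0192 without vehicle replicate 2). Set against A. faecalis, S. aureus wounds had more Lama3, by 0.84 on the log2 scale (SE 0.25), with an edgeR adjusted p of 0.0441. That call held in 5 of 12 fits that left out 1 library. It was lost without vehicle replicate 1 (adjusted p = 0.0578 by edgeR), A. faecalis replicates 2, 3 or 4 (0.109, 0.106 and 0.113) or S. aureus replicates 1, 2 or 3 (0.0802, 0.101 and 0.117). Of 8 other settings the call held in 4. It was lost with the replicate number as a block (adjusted p = 0.0643 by edgeR), upper-quartile scaling (0.0506), no filter on low counts (0.0609) and limma-voom (0.0618).

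Lamb3, the β3 chain that joins the α3 chain in the trimer, was not called in any of the 3 comparisons. Its level was 49.5, 51.4, 49.8 and 88.6 CPM with vehicle, 33.2, 77.3, 40.5 and 74.5 CPM with A. faecalis, and 54.8, 60.9, 70.8 and 77.0 CPM with S. aureus. The 3 groups overlapped throughout, and the A. faecalis libraries fell into a low and a high pair. The log2 fold change was -0.09 with A. faecalis (95% interval -0.70 to 0.53) and 0.14 with S. aureus (-0.47 to 0.75) against vehicle, and 0.22 between the bacteria (-0.39 to 0.84), with adjusted p of 0.958, 0.792 and 0.644 by edgeR. These intervals are wide, so equal levels are not shown. The ratio of Lama3 to Lamb3 CPM, looked at after their values were seen, was 0.961 to 2.20 in the vehicle libraries, 0.353 to 1.14 with A. faecalis and 0.482 to 1.04 with S. aureus. It was lowest in A. faecalis replicates 2 and 4, where Lamb3 was high.

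Neutrophil markers varied along with Lamb3 in the A. faecalis group and in part of the vehicle group. Their summed level (7 of 7 genes measured) was 690 to 8313 CPM with vehicle, 1664 to 3763 CPM with A. faecalis and 8952 to 14068 CPM with S. aureus. Vehicle replicate 4 had the highest sum of its group and the highest Lamb3 of the 12 libraries, but vehicle replicate 2, with a sum of 5197 CPM, had Lamb3 at the level of the remaining vehicle libraries. A. faecalis replicates 2 and 4, the pair with high Lamb3, had sums of 3763 and 3648 CPM, and replicates 1 and 3, the pair with low Lamb3, had 1664 and 1873 CPM. S. aureus replicates 1 to 4 had sums of 8952, 10575, 14068 and 10524 CPM, with Lamb3 at 54.8, 60.9, 70.8 and 77.0 CPM. These sums were above those of all other libraries, while Lamb3 with S. aureus overlapped with both other groups. The part of neutrophils in the Lamb3 level was not tested. In the GENCODE M21 annotation, of the earlier mouse build, the span of Lamb3 also holds G0s2 and Hsd11b1 on the opposite strand, with no exon in common. Exons of Lama3, Itgb4 and Dst share bases with non-coding genes on the opposite strand there, and if strand was not used in counting, reads of such pairs cannot be told apart.

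**Figure D2:**
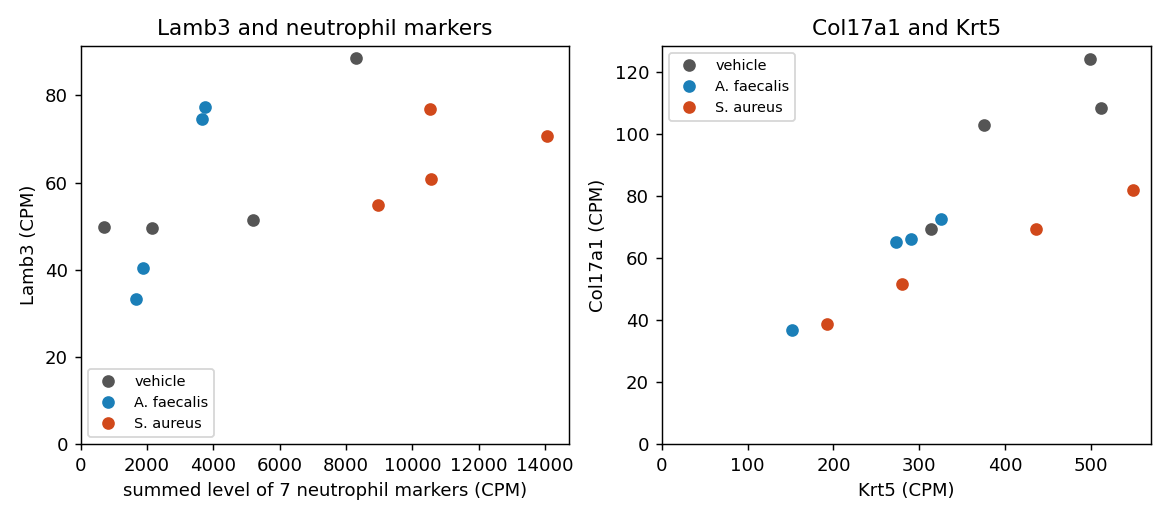
Left, Lamb3 level (CPM) against the summed level of 7 neutrophil markers (CPM); right, Col17a1 level against Krt5 level (CPM); each point is 1 library, coloured by group, axes linear from 0. On the left, A. faecalis replicates 2 and 4 and vehicle replicate 4 are highest in their groups on both axes; on the right, Col17a1 goes with Krt5 (r of log2 CPM 0.89 over 12 libraries), with the S. aureus points along a lower line.

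All 4 hemidesmosome genes had lower means with both bacteria than with vehicle and none was called by edgeR in any of the 3 comparisons, with groups that overlapped for Col17a1, Itgb4 and Itga6. Col17a1, the transmembrane collagen shed from the keratinocyte surface when cells detach, was at 108 CPM, 69.3 CPM, 124 CPM and 103 CPM with vehicle. It was at 36.7, 65.3, 72.5 and 66.2 CPM with A. faecalis and at 69.2, 81.8, 51.8 and 38.8 CPM with S. aureus. Vehicle replicate 2 lay inside the range of both bacterial groups, and the other 3 vehicle libraries lay above all 8 of them. The log2 fold changes against vehicle were -0.75 (SE 0.26, adjusted p = 0.565) with A. faecalis and -0.74 (SE 0.26, adjusted p = 0.1) with S. aureus by edgeR. Between the bacteria the difference was 0.01 with a 95% interval of -0.57 to 0.58.

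Itgb4, the β4 subunit that exists only as α6β4 and carries the long tail that holds the hemidesmosome together, was at 42.4 to 94.8 CPM with vehicle, 30.4 to 51.1 CPM with A. faecalis and 25.8 to 59.0 CPM with S. aureus. The log2 fold changes against vehicle were -0.86 (SE 0.29, adjusted p = 0.547 by edgeR) and -0.58 (SE 0.29, adjusted p = 0.219 by edgeR). Its partner Itga6, which keratinocytes share with endothelium and other cells in pairs with Itgb1, was at 160 to 274 CPM, 149 to 195 CPM and 173 to 190 CPM in the same order of groups. All 3 groups of Itga6 overlapped, and its log2 fold changes were -0.27 with A. faecalis (95% interval -0.61 to 0.06) and -0.17 with S. aureus (-0.50 to 0.17) against vehicle. Vehicle replicate 3 had the highest Itga6 and Itgb4 of the 12 libraries. Without it, the log2 fold change of Itga6 against vehicle was -0.08 with A. faecalis and 0.03 with S. aureus.

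Dst encodes dystonin, whose epithelial form BP230 is the hemidesmosome's inner link to keratin and whose longer forms serve nerve and muscle; the table is per gene and does not separate them. Its level was 635, 739, 939 and 692 CPM with vehicle, 803, 662, 719 and 746 CPM with A. faecalis, and 587, 574, 570 and 554 CPM with S. aureus. Every S. aureus library lay below all 8 others, and the S. aureus libraries were the closest together of the 3 groups. Dst was 1 of the 9 genes that did not overlap and was lower with S. aureus, where 7.57% of all genes tested did so against vehicle and 11.5% against A. faecalis. The log2 fold changes were -0.39 against vehicle (SE 0.12, adjusted p = 0.0632 by edgeR) and -0.36 against A. faecalis (SE 0.12, adjusted p = 0.0663 by edgeR). Of 8 other settings, 2 called Dst against vehicle and 3 against A. faecalis. Among them were upper-quartile scaling (adjusted p = 0.0473 and 0.04 by edgeR) and DESeq2 (0.0194 and 0.028). Of 12 fits that left out 1 library, 0 called it against vehicle and 1 against A. faecalis (adjusted p = 0.0153 by edgeR). Without vehicle replicate 3 the log2 fold change against vehicle was -0.25. Summed skeletal muscle markers (6 of 6) were 1281 to 2315 CPM with vehicle, 1311 to 1895 CPM with A. faecalis and 1231 to 1689 CPM with S. aureus, and summed Schwann cell markers (6 of 6) were 209 to 426, 182 to 274 and 257 to 367 CPM. Vehicle replicate 3 was the highest of the 12 libraries in both sums and in Dst. The part of these cells in the Dst level was not tested.

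Among the integrins of moving keratinocytes, Itgb6 had the largest log2 fold change between the bacteria of the 9 genes. The β6 subunit is found in epithelia only, is scarce in resting epidermis and is switched on at wound edges. Itgb6 was at 7.08, 7.28, 8.08 and 9.73 CPM with vehicle, 3.31, 3.30, 4.40 and 3.53 CPM with A. faecalis, and 7.31, 10.8, 8.08 and 5.68 CPM with S. aureus. The A. faecalis libraries were below all 8 others, and the vehicle and S. aureus libraries overlapped. With S. aureus the level was 2.19-fold that with A. faecalis, a log2 difference of 1.13 (SE 0.19, 95% interval 0.71 to 1.55) with an edgeR adjusted p of 0.00403. This call held in 12 of 12 fits that left out 1 library (adjusted p up to 0.017 by edgeR) and in 8 of 8 other settings. A. faecalis against vehicle gave -1.14 (SE 0.19, 95% interval -1.56 to -0.72) with an adjusted p of 0.16 by edgeR and 3.18e-05 by DESeq2. S. aureus against vehicle gave -0.01 (95% interval -0.42 to 0.40, adjusted p = 0.974 by edgeR). With Lama3, Itgb6 made 2 of 9 genes whose A. faecalis libraries all lay below the vehicle libraries, where 2.56% of all genes did so.

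Itga3, the α3 subunit of the laminin-332 receptor of spreading cells, was at 41.0, 34.7, 42.3 and 38.4 CPM with vehicle. It was at 35.2, 24.8, 39.5 and 31.1 CPM with A. faecalis and at 52.9, 53.4, 47.9 and 42.0 CPM with S. aureus. The S. aureus libraries were all above the A. faecalis libraries, and the vehicle libraries overlapped with both groups. The log2 difference of S. aureus from A. faecalis was 0.59 (SE 0.13, 95% interval 0.30 to 0.88), with an edgeR adjusted p of 0.0153. The call held in 12 of 12 fits that left out 1 library (adjusted p up to 0.0472 by edgeR) and in 8 of 8 other settings. The values against vehicle were -0.26 with A. faecalis (SE 0.13, adjusted p = 0.666 by edgeR; -0.14 without A. faecalis replicate 2) and 0.33 with S. aureus (SE 0.13, adjusted p = 0.143 by edgeR).

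Itga5, the α5 subunit of the fibronectin receptor, which fibroblasts, endothelium and leukocytes carry as well, was at 222, 297, 165 and 271 CPM with vehicle. It was at 267, 263, 253 and 249 CPM with A. faecalis and at 274, 346, 393 and 384 CPM with S. aureus. The A. faecalis libraries lay close together and all below the S. aureus libraries, while the vehicle range took in the A. faecalis range and S. aureus replicate 1. The log2 difference of S. aureus from vehicle was 0.55 (SE 0.17), whose adjusted p was 0.0661 by edgeR and 0.0166 by DESeq2, and the edgeR adjusted p was 0.0428 without vehicle replicate 2 and 0.0389 without S. aureus replicate 1. S. aureus against A. faecalis gave 0.44 (SE 0.17, adjusted p = 0.106 by edgeR; 0.0317 without vehicle replicate 3 and 0.0263 with only those groups fitted). Itga3, Itga5 and Itgb6 were the 3 of 9 genes whose S. aureus libraries all lay above the A. faecalis libraries, where 11.8% of all genes did so. Endothelial markers (8 of 8) summed to 907 to 1313 CPM with vehicle, 990 to 1409 CPM with A. faecalis and 1424 to 1578 CPM with S. aureus. The S. aureus range of this sum thus also lay above the others, which does not hold for each marker. EdgeR called 2 of the 8 higher with S. aureus than with vehicle (3.87% of all genes) and 1 higher than with A. faecalis (7.62%). In both comparisons 7 log2 fold changes were positive and 1 was negative. Cldn5 had its lowest mean with S. aureus (36.8, 31.7 and 25.3 CPM with vehicle, A. faecalis and S. aureus). The part of endothelial cells in the Itga5 and Itga3 levels was not tested.

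**Figure D3:**
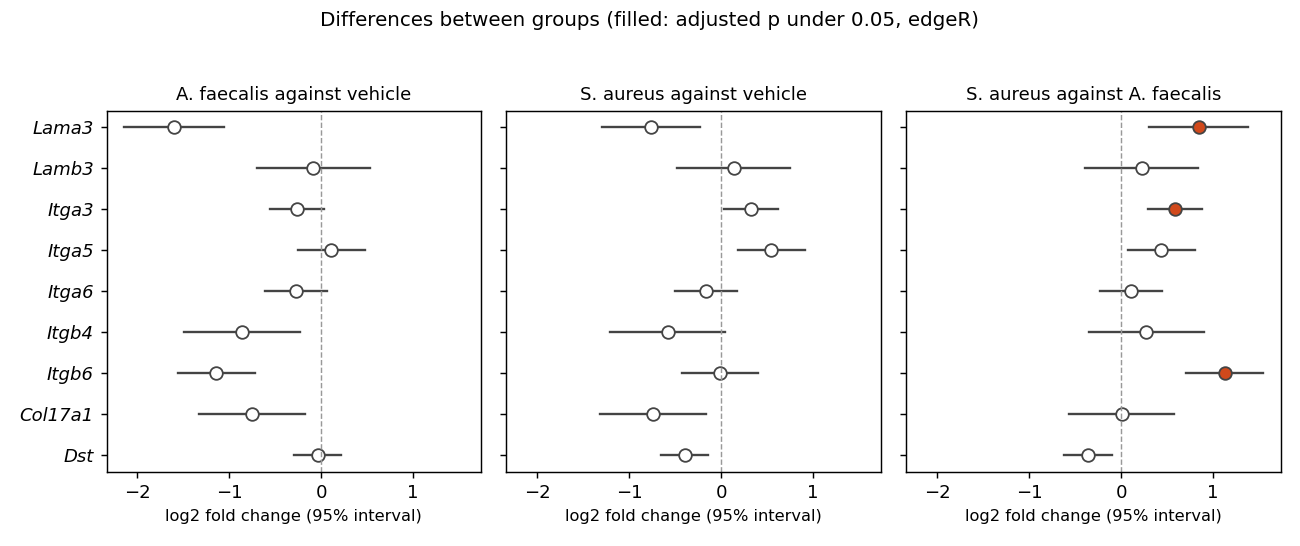
Log2 fold change (horizontal axis) with its 95% interval for each of the 9 genes in the 3 comparisons, each fitted with 4 libraries per group; filled points have an adjusted p under 0.05 by edgeR. The filled points are Lama3 (0.84), Itga3 (0.59) and Itgb6 (1.13), all in S. aureus against A. faecalis.

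**Figure D4:**
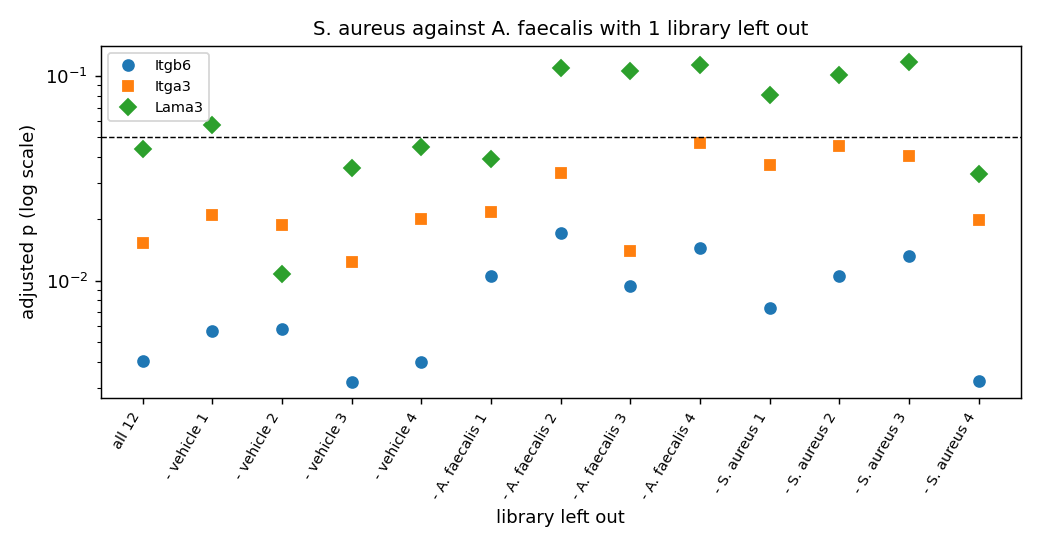
Adjusted p by edgeR (vertical axis, log scale) of Itgb6, Itga3 and Lama3 in S. aureus against A. faecalis with all 12 libraries and with each library left out in turn (horizontal axis); the dashed line is 0.05. Itgb6 and Itga3 stay under the line in every fit, and Lama3 is above it in 7 of the 12.

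The promoters of Itgb6 and Itga3 are shown because these genes differed between the bacteria in every fit. Each line gives 250 bases up to the annotated start, from RefSeq on GRCm38.p6, on the gene's strand, at chr2:60722604-60722853 (minus strand) for Itgb6 and chr11:95076715-95076964 (minus strand) for Itga3. Capitals mark GGGCGG, the core letters bound by Sp1; none of the other motifs searched was in these 2 windows. Each gene has 1 further promoter in the RefSeq table, not printed here.
Itgb6: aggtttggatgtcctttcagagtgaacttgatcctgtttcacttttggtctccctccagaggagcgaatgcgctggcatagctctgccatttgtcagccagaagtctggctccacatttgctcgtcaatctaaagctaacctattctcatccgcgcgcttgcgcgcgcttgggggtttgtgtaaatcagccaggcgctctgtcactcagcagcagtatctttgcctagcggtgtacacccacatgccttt
Itga3: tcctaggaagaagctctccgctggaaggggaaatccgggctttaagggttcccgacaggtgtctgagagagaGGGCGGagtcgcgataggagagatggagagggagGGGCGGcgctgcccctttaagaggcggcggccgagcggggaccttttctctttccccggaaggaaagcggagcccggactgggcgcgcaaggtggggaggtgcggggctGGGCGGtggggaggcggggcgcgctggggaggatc
The Itga3 window is rich in G and C and holds GGGCGG 3 times, while the Itgb6 window holds it at no place. Of the 9 genes, 6 had a promoter in the table, 10 windows in all. On either strand, GGGCGG was in 4 of the 10 windows (Itga3, Itga5 and Dst) and in 32.7% of 32851 promoter windows of the same length. TGANTCA, the AP-1 letters, was in 0 of 10 (6.75% of all), AACCGGTT, the Grhl letters, in 0 of 10 (0.116%), and CATTCC, the Tead letters, in 1 of 10, a Lamb3 window (12.6%). No match overlapped another. A match is a description of letters and no evidence of binding.

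Summed basal and wound-edge keratinocyte markers were at lower values with A. faecalis than with vehicle, beside the low values of Lama3 and Itgb6. EdgeR called 0 of these markers in that comparison, where it called 0.0110% of all genes. All 6 basal and all 6 wound-edge markers had negative log2 fold changes there. At an unadjusted p under 0.05 by edgeR, 4 of the basal and 5 of the wound-edge markers were lower and 0 higher (4.50% and 3.18% of all genes). DESeq2 called 0 basal markers and 1 wound-edge marker as lower (0.439%). The basal keratinocyte markers (6 of 6) summed to 938 to 1493 CPM with vehicle, 460 to 893 CPM with A. faecalis and 702 to 2069 CPM with S. aureus. The wound-edge markers (6 of 6), among them the stress keratins Krt6a, Krt6b, Krt16 and Krt17, summed to 1642 to 2127 CPM, 736 to 1154 CPM and 1463 to 4294 CPM. In both sums every A. faecalis library was below every vehicle library. The sums of the suprabasal markers (7 of 7) overlapped, at 430 to 744 CPM with vehicle, 257 to 636 CPM with A. faecalis and 255 to 795 CPM with S. aureus. In this sum A. faecalis replicate 4 was above vehicle replicates 2 and 4. The sum does not show Flg2, which was at 64.0 to 235 CPM with vehicle, 45.1 to 93.4 CPM with A. faecalis and 5.44 to 22.1 CPM with S. aureus. EdgeR called 1 of the 7 lower with S. aureus against vehicle (2.97% of all genes) and 1 against A. faecalis (5.06%), and 0 higher in either. Of the 6 wound-edge markers, 5 were called higher with S. aureus than with A. faecalis (Hbegf, Krt6a, Krt6b, Krt16 and Krt17), where 7.62% of all genes were. Krt6a was at 754 ± 368 CPM against 274 ± 54.9 CPM (SD, n = 4; adjusted p = 0.00928 by edgeR). The paralogs Krt6a and Krt6b share sequence, so reads can be split between them. Krt5 and Krt14 were not called in any of the 3 comparisons, the smallest adjusted p being 0.0514 by edgeR for Krt14 between the bacteria. Another basal marker, Krt15, a keratin of resting basal and hair follicle bulge cells, went the other way: it was at 24.1 ± 18.6 CPM with vehicle, 20.4 ± 8.85 CPM with A. faecalis and 1.29 ± 0.687 CPM with S. aureus (SD, n = 4). It was called lower with S. aureus against both (adjusted p = 0.00791 and 0.00257 by edgeR), and the basal sum, mostly Krt5 and Krt14, does not show it. Between the bacteria, edgeR called 1 of the 6 basal markers higher with S. aureus and Krt15 lower (7.62% and 5.06% of all genes). The log2 fold changes there were positive for 5 basal markers and negative for 1.

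Set against Krt5 and Krt14 in the same library (log2 CPM of the gene less the mean log2 CPM of these keratins, given as values with no test), some of these gaps between groups closed and others opened. Itgb6 was at -6.58 to -5.84 with vehicle, -6.70 to -5.92 with A. faecalis and -6.42 to -5.66 with S. aureus, so that all groups overlapped. The overlap of A. faecalis with S. aureus came from A. faecalis replicate 1 (-5.92). A. faecalis replicates 2, 3 and 4 (-6.64, -6.51 and -6.70) lay below every S. aureus library, and replicates 2 and 4 also below every vehicle library. Lama3 was at -3.08 to -2.31 with vehicle and -3.82 to -2.43 with A. faecalis, with 3 of 4 A. faecalis libraries below the vehicle range, and at -3.85 to -2.73 with S. aureus. Itga3 was at -3.75 to -2.53 with A. faecalis and -4.06 to -2.84 with S. aureus, which overlapped. Col17a1 kept to a narrow band of -2.65 to -2.39 with vehicle and -2.48 to -2.35 with A. faecalis. It was at -3.44 to -2.96 with S. aureus, below all 8 other libraries. Dst was at -0.10 to 0.82 with vehicle and -0.63 to 0.87 with S. aureus, which overlapped. With A. faecalis it was at 0.83 to 1.98, above every vehicle library but by little at the lowest. Without this scaling, the log2 fold change of Dst with A. faecalis against vehicle was -0.04. A value on this scale also shifts where only the keratins differ. Dst, Itga5 and Lamb3 did not follow Krt5 over the 12 libraries (r of log2 CPM -0.03, -0.38 and 0.08). Itga5 was at -0.68 to 0.40 with A. faecalis and -1.36 to 0.34 with S. aureus, which overlapped, and at -1.98 to -0.49 with vehicle. For Lamb3, Itga6 and Itgb4 all 3 groups overlapped on this scale. The part of epidermal content in the differences above was not tested.

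The 9 genes varied together in some pairs and not in others over the 12 libraries, which share groups and depth. Itgb4 and Col17a1 had a Pearson r of log2 CPM of 0.863 (n = 12), and 0.789 for deviations from the group means. Lama3 had an r of 0.821 with Itgb4 and 0.818 with Itgb6 (n = 12), and of 0.0668 with Lamb3, and these were 0.757, 0.503 and -0.132 for the deviations. Itga5 and Dst ran opposite to each other, with an r of -0.795 (n = 12) and -0.541 for the deviations. Of all genes with a standard symbol and at least 1 CPM, Fermt1 was among the most alike to both Lama3 (r = 0.886) and Itgb4 (r = 0.927). Fermt1 encodes kindlin-1, which activates integrins in keratinocytes and is lost in Kindler syndrome. Those most like Itgb6 were Dsg3, a desmosomal cadherin of deep epidermis (r = 0.940), Prss12 (0.913) and Krt6a (0.904). For Col17a1 they were Fzd10 (0.945), Sox21 (0.944) and Dsc3, another desmosomal cadherin (0.942). The genes most like Lamb3 were Rab37 (0.918), Zkscan14 (0.914) and Atp6v0d1 (0.902). Itga5 was closest to Ppp1r3b (0.973), Midn (0.970) and Snai1 (0.967), Itga6 to Pcdh7 (0.979), Itga3 to Mall (0.940) and Dst to Mrs2 (0.941). These values describe likeness over these libraries and nothing more.

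Other genes of the pathway were read from 6 lists, 90 genes tested in all. With A. faecalis against vehicle, edgeR and limma-voom called 0 of the 90 (0.0110% of all genes by each), with 9 lower and 0 higher at an unadjusted p under 0.05 (4.50% and 3.18% of all genes), and DESeq2 called 4 as lower (0.439%). The median log2 fold change of the 90 was -0.14, where it was -0.03 over all genes. With S. aureus against vehicle, edgeR called 5 as higher and 2 as lower, where 3.87% and 2.97% of all genes were (median 0.07, all genes -0.04). At an unadjusted p under 0.05, 26 were higher and 13 lower there (12.3% and 14.8% of all genes). DESeq2 called 19 as higher and 6 as lower (15.8% of all genes in either direction), and limma-voom 7 and 1 (6.97%). With S. aureus against A. faecalis, edgeR called 18 as higher and 1 as lower, where 7.62% and 5.06% of all genes were (median 0.20, all genes -0.02).

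Among 11 other integrins and hemidesmosome partners, Itga2 and Itgav were higher with S. aureus than with A. faecalis. EdgeR called 7.62% of all genes higher there. Itga2, the collagen-binding α2 subunit of keratinocytes and platelets, was at 13.78 to 16.01 CPM with A. faecalis, 18.49 to 21.29 CPM with vehicle and 21.35 to 27.89 CPM with S. aureus. The 3 groups did not overlap, and the log2 fold change between the bacteria was 0.74 (SE 0.094, adjusted p = 0.00104 by edgeR). Itgav, the αv partner of the β6 subunit and of several others, was at 222 ± 14.5 CPM with A. faecalis and with S. aureus at 359 ± 54.9 CPM (SD, n = 4; log2 fold change 0.70, adjusted p = 0.016 by edgeR). Itgb1bp1, a protein that binds the β1 tail, fell with S. aureus against vehicle by 0.47 on the log2 scale (adjusted p = 0.0489 by edgeR), a call that limma-voom did not make. The plakin Plec and the tetraspanin Cd151, the remaining hemidesmosome parts on the list, had log2 fold changes between -0.18 and 0.18 in the 3 comparisons, and none was called. Itgb1, the partner of the α3 and α5 subunits, had log2 fold changes of 0.02 with A. faecalis and 0.09 with S. aureus against vehicle and was not called.

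Of 12 listed genes for matrix and TGF-β proteins, some of which αvβ6 or α5β1 bind, Tnc had the largest log2 fold change between the bacteria. Tnc, tenascin-C, was at 1621 ± 807 CPM with vehicle, 1064 ± 146 CPM with A. faecalis and 4151 ± 489 CPM with S. aureus (SD, n = 4). It was higher with S. aureus against both vehicle (log2 fold change 1.36, adjusted p = 0.0461 by edgeR) and A. faecalis (1.96, adjusted p = 0.00628 by edgeR). Spp1, osteopontin, Thbs1, thrombospondin-1, and Tgfb2, a TGF-β ligand, were also higher with S. aureus than with A. faecalis. That made 4 of the 12 listed genes, where 7.62% of all genes were called higher. The log2 fold changes of Spp1, Thbs1 and Tgfb2 were 1.87, 1.92 and 0.58. Ltbp1, which binds latent TGF-β to matrix, fell with S. aureus against vehicle by 0.49 on the log2 scale (adjusted p = 0.0159 by edgeR). Fn1, fibronectin, was at 1770 ± 644 CPM with vehicle, 2087 ± 399 CPM with A. faecalis and 2303 ± 622 CPM with S. aureus and was not called.

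Of 13 enzymes that cut laminin-332 or shed collagen XVII or act with them, 3 rose and 1 fell with S. aureus against A. faecalis, where 7.62% of all genes were called higher and 5.06% lower. Bmp1, the tolloid protease that trims laminin-332 chains, was at 133 ± 27.4 CPM with vehicle, 136 ± 18.4 CPM with A. faecalis and 199.7 ± 11.6 CPM with S. aureus (SD, n = 4). It was higher with S. aureus against both (adjusted p = 0.0337 against vehicle and 0.0265 against A. faecalis by edgeR). Its relative Tll1 was higher against A. faecalis by 0.42 on the log2 scale. Plaur, the urokinase receptor, which leukocytes carry as well, had a log2 fold change of 2.16 in that comparison. Adam9, a candidate sheddase of collagen XVII, fell by 0.36 on the log2 scale (adjusted p = 0.0216 by edgeR).

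Of 18 focal adhesion genes, Actn1 and Fermt2 were higher with S. aureus than with A. faecalis. For this and the later counts between the bacteria, edgeR called 7.62% of all genes higher and 5.06% lower. The 2 of 18 focal adhesion and 2 of 20 basement membrane genes called were near that share. Actn1, an actin crosslinker, was also higher with S. aureus than with vehicle (log2 fold change 0.74, adjusted p = 0.0107 by edgeR). Of 20 other basement membrane genes, Frem1 and Agrn were higher with S. aureus than with A. faecalis, by 1.19 and 0.38 on the log2 scale. Of 16 transcription factors of basal and activated keratinocytes, Ets1, Grhl3, Junb, Klf5 and Fosl1 were higher with S. aureus than with A. faecalis. Grhl3, a factor of epidermal closure and barrier, was at 24.2 ± 9.37 CPM against 8.68 ± 2.57 CPM (SD, n = 4; adjusted p = 0.00886 by edgeR). Ets1, which endothelium and lymphocytes express as well, was at 278 ± 26.9 CPM against 163 ± 11.3 CPM (adjusted p = 0.00104 by edgeR) and was also higher than with vehicle. Markers of other cells differed between the bacteria too. Of 7 neutrophil markers, 5 were called higher with S. aureus than with A. faecalis and 0 lower, and all 7 had positive log2 fold changes (median 2.02). Of 7 fibroblast markers, 2 were called higher with S. aureus than with A. faecalis, 5 had positive and 2 negative log2 fold changes, and their sums overlapped (19750 to 24844 against 18094 to 21756 CPM). Of 6 macrophage markers measured, 3 were called lower, and their sums were 2941 to 3668 CPM with S. aureus, 4474 to 6624 CPM with A. faecalis and 3505 to 5906 CPM with vehicle. The part of other cell types in the list genes was not tested.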

How the data were processed

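RNA of wounded skin was sequenced in 12 libraries, 3 groups of 4 set by the treatment label. Per the labels' protocols, stranded total-RNA libraries were made after ribosomal RNA removal. The deposited table holds estimated counts per gene; kallisto 0.48.0, DESeq2 1.34.0, R 4.1.3, FastQC 0.12.1 and build GRCm39 are named in the submitters' processing notes without their roles. How transcripts were summed and whether strand was used are not given in the sources used here. Of 29957 entries, 1 had no name and was left out (0.00909% to 0.0151% of each library). Counts were rounded and tested with edgeR 4.0.16 (R 4.3.3): 1 mean per group, TMM, filterByExpr (minimum count 10, total 15), robust two-sided quasi-likelihood test, Benjamini-Hochberg adjustment over 18218 genes, threshold 0.05. The SE is the log2 fold change divided by the square root of F, and intervals are 95%, unadjusted. Correlations and values set against Krt5 and Krt14 used log2 CPM with a prior count of 2. Replicate pairs within a group differed by a chi-square of 28.0 to 460 per degree of freedom, so no library looked deposited under 2 names within its group. Pairs across groups were not compared in this way. The fit was tested on simulated data. Alternatives were DESeq2 1.42.0, limma-voom (limma 3.58.1), other scalings and filters, fits of the 2 groups compared, a replicate block, and leaving out each library.

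The 9 genes and all lists were chosen with earlier results of these data known. Named are the 9 genes, called genes of each list (up to 6 per list and comparison), defining markers, and up to 3 genes most like each of the 9. Of the basement membrane list, 1 gene is not reported here by itself, also where likeness is ranked; counts include it. Genes named without being called are list members given with their values.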

Additional observations from a re-analysis of the deposited data

Results flagged for a closer look

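Of 27 groups of 4 libraries (9 genes in 3 groups), 2 held a library far from the rest, where chance gives about 1 in 20 groups. Lamb3 in vehicle replicate 4 was at 88.6 CPM, and the other vehicle libraries were at 49.5 to 51.4 CPM. Itgb4 in S. aureus replicate 4 was at 25.8 CPM, and the other S. aureus libraries were at 53.8 to 59.0 CPM. Without vehicle replicate 4 the log2 fold change of Lamb3 for A. faecalis against vehicle was 0.17 in place of -0.09, and neither was called. Without S. aureus replicate 4 that of Itgb4 for S. aureus against vehicle was -0.37 in place of -0.58, and neither was called.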

How the results depend on the processing

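Of the 9 genes, edgeR called 0 to 1 with A. faecalis and 0 to 2 with S. aureus against vehicle, and 2 to 5 between the bacteria, when 1 library was left out. DESeq2 called 2, 4 and 4, upper-quartile scaling 1 for S. aureus against vehicle, and a fit of only those groups 5 between the bacteria. Over all genes, DESeq2 called 120, 2876 and 3474, and a fit of 2 groups called 350 for S. aureus against vehicle. The 8 settings other than leaving out a library called 2 to 120, 350 to 2876 and 1929 to 3474 of all genes. Leaving out 1 library gave 2 to 10, 260 to 1750 and 1313 to 3457 genes. A. faecalis against vehicle gave 10 without vehicle replicate 2 and 7 without vehicle replicate 4. S. aureus against vehicle gave 672 without vehicle replicate 1, 792 without A. faecalis replicate 3, and 451, 260 and 381 without S. aureus replicates 2, 3 and 4. The comparison of the bacteria gave 1423, 1337 and 1392 without A. faecalis replicates 2, 3 and 4, and 1313 and 1510 without S. aureus replicates 3 and 4. Values near 0 changed sign. Itgb6 for S. aureus against vehicle was 0.00346 with DESeq2 size factors, 0.00396 with DESeq2 and 0.000804 with a minimum mean of 1 CPM (-0.20 to 0.12 without 1 library). Col17a1 between the bacteria was -0.0236 with upper-quartile scaling, -0.00337 with limma-voom and -0.000148 with no filter (-0.18 to 0.16 without 1 library). Without 1 library, Lamb3 (-0.27 to 0.17), Itga5 (-0.0180 to 0.25) and Dst (-0.0913 to 0.10) with A. faecalis and Itga6 (-0.26 to 0.0266) with S. aureus against vehicle did so too. The cause was not tested. The replicate numbers did not pair the libraries: same-numbered libraries had correlations of -0.21 to 0.182, over 0.1 in 3 of 12 pairs, and a library was closest to its own number in 4 of 24 cases. With the replicate number as a block, 0, 0 and 2 of the 9 genes and 2, 1038 and 2120 of all genes were called. Estimated counts carry assignment error that the replicate spread includes only in part, and 4 libraries per group limit what could be called.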
